A study of Mus musculus with 354 samples.

Results

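The cells described here had some but not all of a set of 4 genes, Spp1, Timp1, Mmp9 and Dmp1, which are called the osteopontin network. A gene counted as present where its counts reached 100 CPM (counts per 1000000 of the cell's total), and members were the cells with 1 to 3 of the 4 genes present. There were 92 such cells, 46 among the 177 cells of each genotype (26.0%). All 4 genes were present in 36 cells, all CA-ERBB2, and none of the 4 in 226 cells. The cells were sorted by GFP from the organ of Corti of mice at postnatal day 3, and the labels call them cochlear supporting cells. CA-ERBB2 mice carried TetON-CAERBB2, a doxycycline-inducible transgene of a constitutively active ERBB2, beside ROSA-floxed-rtTA/GFP as well as Fgfr3-iCre. Control mice had ROSA-floxed-rtTA/GFP as well as Fgfr3-iCre but lacked the transgene. Both received tamoxifen at 75 mg/kg on days 0 and 1 and doxycycline at 100 mg/kg on day 2. GFP follows the recombination driven by the Fgfr3 promoter, so it marks cells that had Cre activity and not a cell type, and pups of a genotype were pooled. Each genotype had 3 plates of 59 wells with 1 library per well, labelled as single cells, and the plate was the replicate.

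Osteopontin, the product of Spp1, is a secreted acidic glycoprotein that binds integrins and CD44 and is known from bone matrix and from wounded tissue. Timp1 encodes an inhibitor of matrix metalloproteinases, Mmp9 encodes gelatinase B, a protease that cleaves osteopontin, and Dmp1 encodes a phosphoprotein of mineralized matrix of the same family as osteopontin. ERBB2 is a receptor tyrosine kinase that signals through ERK, whose nuclear targets include the AP-1 and ETS factors, and in the neonatal cochlea supporting cells surround the hair cells.

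On GRCm38, Spp1 lies on the plus strand at chr5:104435118-104441050 and Dmp1 on the same chromosome and strand at chr5:104202613-104214102. Timp1 lies at chrX:20870166-20874735 and Mmp9 at chr2:164940780-164955850, both on the plus strand. The 250 bases before the start of Spp1, Timp1 and Dmp1 (RefSeq, GRCm38.p6, plus strand) are shown because their promoters are the sequences on which the network genes could be compared. The intervals are chr5:104434861-104435110 for Spp1, chrX:20869916-20870165 for Timp1 and chr5:104202367-104202616 for Dmp1. Capitals mark the ETS motif AGGAAGT, searched on both strands.
Spp1: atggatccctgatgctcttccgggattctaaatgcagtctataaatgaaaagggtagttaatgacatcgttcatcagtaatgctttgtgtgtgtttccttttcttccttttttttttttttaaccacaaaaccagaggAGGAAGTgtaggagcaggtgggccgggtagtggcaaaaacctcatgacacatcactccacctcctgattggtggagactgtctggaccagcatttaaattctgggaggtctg
Timp1: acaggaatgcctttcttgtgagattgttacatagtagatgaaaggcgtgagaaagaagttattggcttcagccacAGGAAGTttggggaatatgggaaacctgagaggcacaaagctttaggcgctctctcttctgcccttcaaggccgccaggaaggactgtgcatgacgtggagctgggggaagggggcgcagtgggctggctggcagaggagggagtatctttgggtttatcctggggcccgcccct
Dmp1: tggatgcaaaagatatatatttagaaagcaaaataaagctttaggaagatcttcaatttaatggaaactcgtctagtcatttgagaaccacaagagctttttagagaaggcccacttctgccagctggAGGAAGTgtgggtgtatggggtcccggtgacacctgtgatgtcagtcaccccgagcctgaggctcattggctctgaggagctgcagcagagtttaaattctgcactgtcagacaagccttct
Each of the 3 promoters held 1 match to AGGAAGT, which 7.69% of 32851 promoters of this length hold. None held the AP-1 motif TGANTCA, which 6.75% of the promoters hold. The set of promoters used here had no entry for Mmp9, so its promoter was not searched. A match describes the letters and not a binding site.

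The total count of the members ranged from 1479 to 4999308 with a median of 2902240, against 2866362 over all cells of the series. The members had a median of 5873 genes detected, where all cells had 3788. A total under 100000 counts was found in 5 members, 2 CA-ERBB2 and 3 Control, and each of these 5 rested on fewer than 10 counts of its network gene. At least 20% of the counts were mitochondrial in 5 CA-ERBB2 members and 1 Control member. The wells A12 to D12 stood apart on every plate: their median number of genes detected was 15673 in CA-ERBB2 and 15538 in Control, against 3269 and 3233 in the other wells. They held 8 members, 2 CA-ERBB2 and 6 Control, with a median of 15975 genes detected where the other 84 members had 5271. The labels do not set these wells apart, and whether each of them held 1 cell was not tested. Counts that include members of these wells are given without them as well where the wells held a large part of the members behind a value.

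Most members had 1 of the 4 genes, and that gene was Spp1 more often than any other. One gene was present in 64 members, 2 genes in 12 and 3 genes in 16. Among the 64 members with 1 gene, it was Spp1 in 43, Timp1 in 9, Mmp9 in 6 and Dmp1 in 6. Among the 12 members with 2 genes, Spp1 was present in 10, Timp1 in 7, Mmp9 in 6 and Dmp1 in 1. All 16 members with 3 genes had Spp1 and Timp1, joined by Mmp9 in 13 and by Dmp1 in 3. No member had both Mmp9 and Dmp1 at the level. The cells were collected at a single time, so this is an order of how many cells had each gene and not an order in time.

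**Figure D1:**
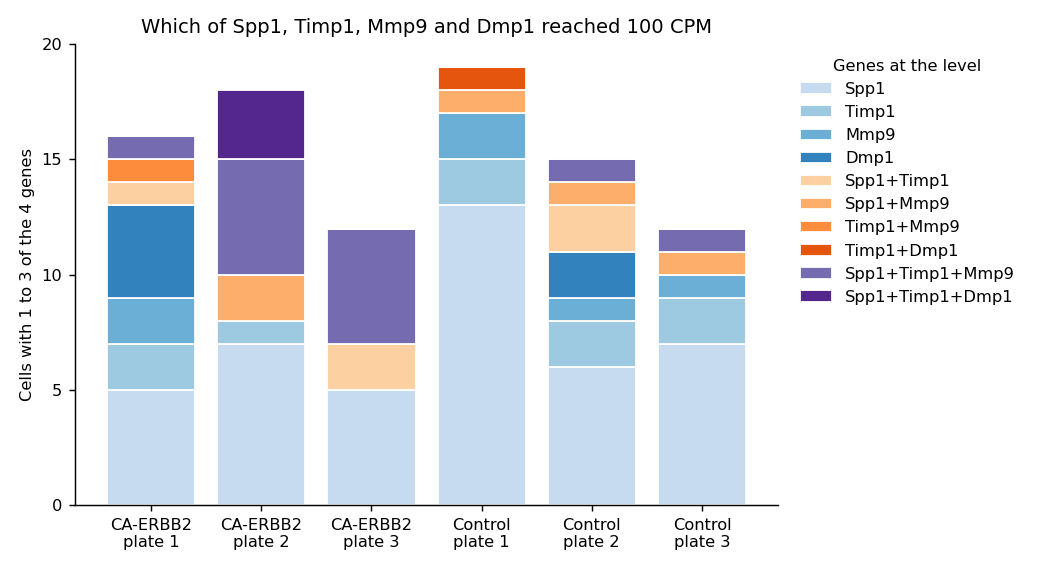
Number of members by which of the 4 genes reached 100 CPM (colors), in a column for each plate of each genotype. Spp1 alone is the most frequent combination in both genotypes, and 14 of the 16 members with 3 genes are CA-ERBB2.

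The genotypes had equal numbers of members but not equal numbers of genes in them. Members with 3 genes were 14 of 46 in CA-ERBB2 (30.4%, 95% exact binomial interval 17.7 to 45.8) and 2 of 46 in Control (4.35%, 0.531 to 14.8). At least 2 genes were present in 20 of 46 CA-ERBB2 members and in 8 of 46 Control members. By plate this was 3 of 16, 10 of 18 and 7 of 12 in CA-ERBB2 and 2 of 19, 4 of 15 and 2 of 12 in Control, so that CA-ERBB2 plate 1 lay within the range of the Control plates. Without wells A12 to D12, at least 2 genes were present in 18 of 44 CA-ERBB2 members and 4 of 40 Control members, and 3 genes in 12 and 1. Full-network cells numbered 3, 14 and 19 on the CA-ERBB2 plates and 0 of 177 in Control (at most 1.69% by the limit of 3 counts). The 4 genes chose the members, so none of these counts was tested, and the intervals cover counting error only.

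Spp1, the secreted ligand, was present in 36 CA-ERBB2 members at 102 to 258930 CPM (median 5270.5) and in 33 Control members at 102 to 27418 CPM (median 639). In members with Spp1 alone the genotypes overlapped along most of their range: 17 CA-ERBB2 cells lay between 102 and 24940 CPM (median 461) and 26 Control cells between 102 and 3553 CPM (median 555). In the 14 CA-ERBB2 members with 3 genes, Spp1 lay between 4505 and 258930 CPM (median 80001). The 2 Control members with 3 genes were at 7292 and 27418 CPM, inside that range. Full-network cells had 10997 to 419458 CPM (median 163541). At least 10000 CPM of Spp1 was found in 16 CA-ERBB2 members and in 1 Control member.

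Timp1, the protease inhibitor, was present in 21 CA-ERBB2 members at 100 to 92406 CPM (median 19471) and in 11 Control members at 104 to 6371 CPM (median 352). Where Timp1 was the only gene, the 3 CA-ERBB2 cells had 100, 174 and 208 CPM and the 6 Control cells 104 to 6371 CPM, so alone it was low in CA-ERBB2. In CA-ERBB2 members with 3 genes it lay between 298 and 75859 CPM (median 25797), where full-network cells had a median of 21842 CPM. The 2 Control members with 3 genes had 112 and 352 CPM of Timp1, with the first of them below every CA-ERBB2 member with 3 genes. This first cell was in a well of A12 to D12.

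Mmp9, the gelatinase, was present in 16 CA-ERBB2 members at 129 to 22894 CPM (median 3050) and in 9 Control members at 106 to 2999 CPM (median 510). Alone, it was at 1899 and 2012 CPM in 2 CA-ERBB2 cells, both on plate 1, and at 177 to 2796 CPM in 4 Control cells. In the 11 CA-ERBB2 members with 3 genes that had Mmp9 its median was 4634 CPM, and in full-network cells 4816 CPM.

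Dmp1, the matrix phosphoprotein, was present in 7 CA-ERBB2 members at 253 to 4480 CPM (median 825) and in 3 Control members at 142, 160 and 832 CPM. All 4 CA-ERBB2 members with Dmp1 alone were on plate 1, at 253, 359, 414 and 826 CPM. The 3 CA-ERBB2 members with Dmp1 beside Spp1 and Timp1 were all on plate 2, at 825, 2657 and 4480 CPM, and Mmp9 had 0 counts in each of them. In the 13 members with 3 genes that lacked Dmp1, 7 had 0 counts of it and the others had up to 73.4 CPM.

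**Figure D2:**
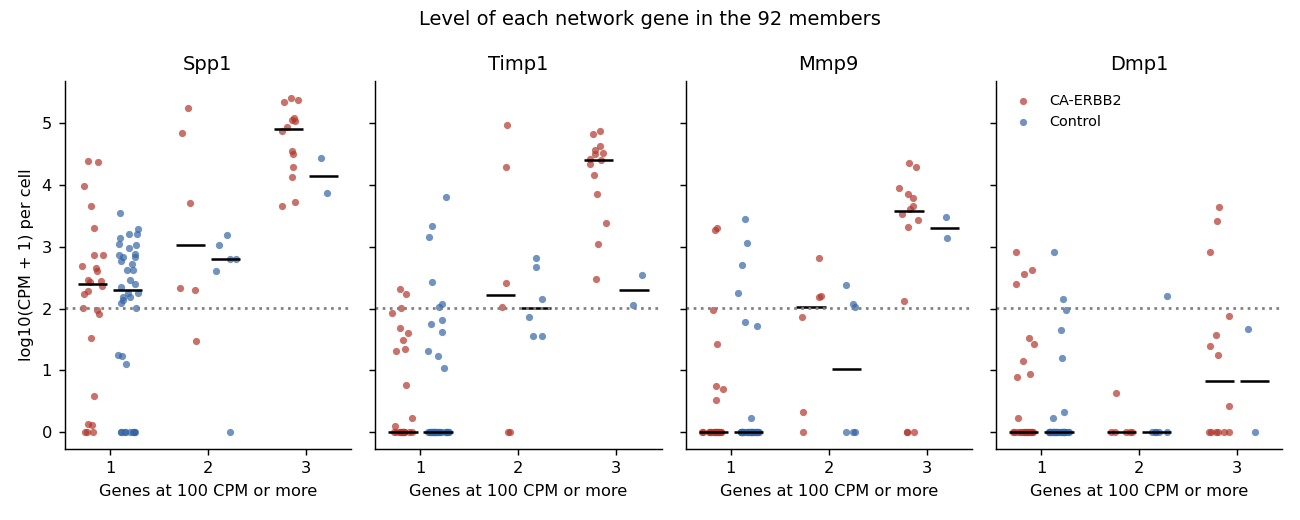
Level of each network gene per member, as log10(CPM + 1), in members with 1, 2 or 3 genes present, with CA-ERBB2 and Control in separate colors and the median of each as a black line. Spp1 and Timp1 of CA-ERBB2 members with 3 genes lie above those of the members with 1 gene, with medians of 80001 and 25797 CPM.

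Divided by the length of the exons, the counts of Spp1 were higher than those of Timp1 in 13 of the 17 CA-ERBB2 members with both and in 2 of the 4 Control members with both. Spp1 was higher than Mmp9 per kb in 12 of 13 CA-ERBB2 members and in 5 of 5 Control members. Timp1 was higher than Mmp9 per kb in 11 of 12 CA-ERBB2 members, with a median ratio of 11.1, and in 0 of 2 Control members, with ratios of 0.325 and 0.467. The Control members outside wells A12 to D12 numbered 2 with Spp1 and Timp1, of which 1 had Spp1 higher, 2 with Spp1 and Mmp9, both with Spp1 higher, and 1 with Timp1 and Mmp9, with Mmp9 higher. In CA-ERBB2 they were then 11 of 15, 10 of 11 and 9 of 10 in the same order. The 4 genes together took a median of 0.197% of the counts of CA-ERBB2 members (0.01003 to 31.1%), 0.0692% of those of Control members (0.0104 to 3.08%) and 20.4% of those of full-network cells.

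The level of 100 CPM is far from the full-network level of Spp1 and nearer to that of Dmp1, and the order of the genes turned with this choice. With each gene set to 1 percent of its own median in full-network cells (1635 CPM for Spp1, 218 for Timp1, 48.2 for Mmp9 and 19.4 for Dmp1), 64 cells were members and 45 had 1 gene. That gene was Mmp9 in 16, Dmp1 in 16, Spp1 in 7 and Timp1 in 6. At these levels the 13 members with 3 genes still all had Spp1, and 12 of them had Timp1. Levels of 50, 200 and 1000 CPM for all genes left Spp1 as the most frequent single gene, in 42 of 70, 37 of 53 and 16 of 23 members with 1 gene. Just inside the level were Timp1 at 100 CPM and Spp1 at 102 CPM in 1 CA-ERBB2 cell each, and just outside it were Dmp1 at 97.1 CPM in a Control cell and Mmp9 at 86.8 CPM in a CA-ERBB2 cell. With every cell thinned to 100000 counts, 50 of 175 CA-ERBB2 cells and 42 of 144 Control cells were members. No counts of any of the 4 genes were found in 17 CA-ERBB2 and 88 Control cells. Depth moved with this number, since 29 of these Control cells and 0 of the CA-ERBB2 cells had a total under 100000 counts. Among cells with at least 100000 counts it was 17 of 175 in CA-ERBB2 and 59 of 144 in Control.

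Mmp13, Ibsp, Bglap2 and Il12a, chosen after their values were seen, were followed cell by cell in members with 1, 2 and 3 genes. Mmp13, collagenase 3, a metalloproteinase of hypertrophic cartilage and bone, had counts in 10 of the 16 members with 3 genes, in 0 of 12 with 2 genes and in 3 of 64 with 1 gene. Its level in the 8 CA-ERBB2 members with 3 genes that had counts was 1.80, 5.93, 123, 254, 499, 1024, 1542 and 5221 CPM, and in both Control members with 3 genes 2042 and 2650 CPM. The other 3 members with counts were Control cells with Mmp9 alone at 15.6 and 3575 CPM and a CA-ERBB2 cell with Spp1 alone at 28.2 CPM. Mmp13 had 0 counts in all 226 cells with none of the 4 genes, which allows a share of up to 1.33%, and counts in 15 of the 36 full-network cells. Without wells A12 to D12 it was found in 9 of 84 members, 7 of them among the 13 members with 3 genes.

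Ibsp, bone sialoprotein, of the same family as Spp1 and Dmp1, had counts in 5 of 14 CA-ERBB2 and 2 of 2 Control members with 3 genes, against 1 of 26 and 8 of 38 members with 1 gene. It also had counts in 13 of 226 cells with none and in 12 of 36 full-network cells. Bglap2, an osteocalcin gene, had counts in 9 of 14 CA-ERBB2 members with 3 genes and in 1 of 26 with 1 gene. Both Control members with 3 genes had counts of Bglap2 as well, at 8.98 and 16.3 CPM. So had Control members with 1 gene, at 1.48, 3.49 and 23.0 CPM, and a Control member with 2 genes, at 136 CPM. Il12a, a subunit of interleukin-12, had counts in 8 members, all CA-ERBB2, of which 6 had 3 genes, and in 21 of 36 full-network cells. It had 0 counts in all Control members and in all 226 cells with none. Without wells A12 to D12, Ibsp had counts in 3 of 12 CA-ERBB2 members and in the 1 remaining Control member with 3 genes, Bglap2 in 8 of those 12 CA-ERBB2 members, and Il12a in 6 members, of which 4 had 3 genes. Most CA-ERBB2 members with 3 genes thus had no count of Ibsp, and 6 of 14 had none of Mmp13.

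**Figure D3:**
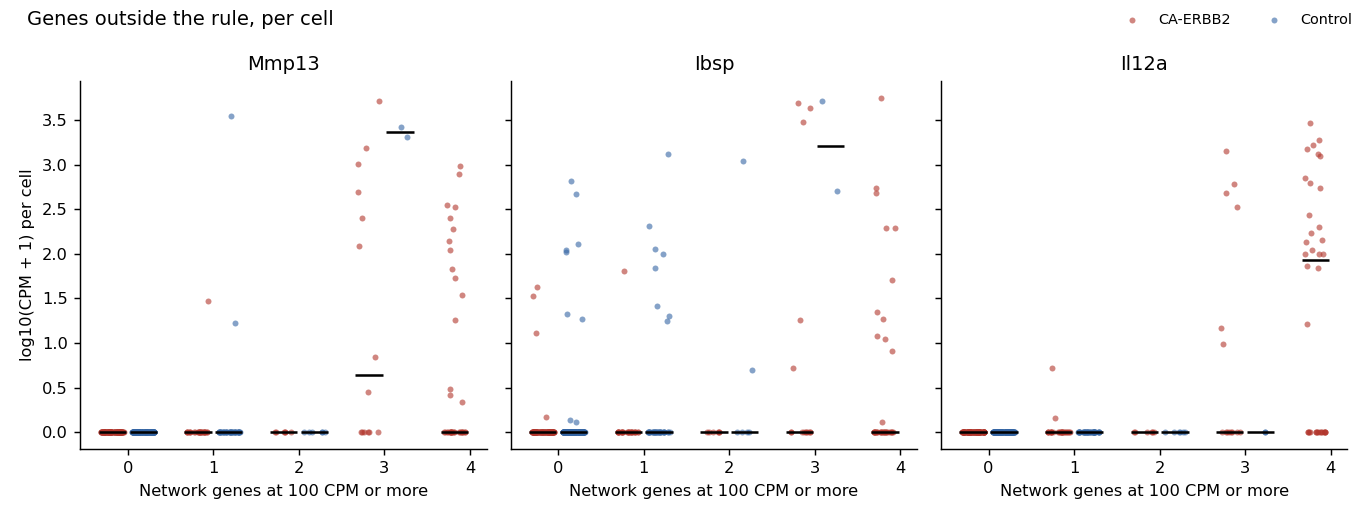
Level of Mmp13, Ibsp and Il12a per cell, as log10(CPM + 1), in cells with 0, 1, 2, 3 and 4 of the network genes, by genotype, with medians as black lines. Mmp13 counts begin at 1 gene (3 of 64 cells) and are found in 10 of 16 cells with 3 genes, and no cell with 0 genes has any.

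The 19 secreted and calcium-binding companions, a list of genes such as galectins, annexins, S100 proteins and plasminogen activator genes, summed to a median of 30014 CPM (5674 to 58400) in the 14 CA-ERBB2 members with 3 genes. The same sum was 3094 and 7120 CPM in the 2 Control members with 3 genes, 2745 and 3117 CPM at the median in CA-ERBB2 and Control members with 1 gene, and 26433 CPM in full-network cells. CA-ERBB2 cells with none of the 4 genes had a median of 4398 CPM (0 to 79212), above that of the members with 1 gene, and Control cells with none had 1917 CPM (0 to 246227). The plates moved with these sums, since 13 of the 14 CA-ERBB2 members with 3 genes were on plates 2 and 3 and 13 of the 26 with 1 gene were on plate 1. Within CA-ERBB2 plates 2 and 3 the medians were 30014 and 34855 CPM with 3 genes, 3410 and 3842 CPM with 1 gene and 5541 and 5530 CPM with none. Plate 1 had 12569 CPM in its 1 member with 3 genes, 2424 CPM with 1 gene and 2926 CPM with none. Lgals1, galectin-1, had counts in all 16 members with 3 genes, at a median of 12557 CPM in CA-ERBB2 (657 to 33411) and at 740 and 1006 CPM in Control. In members with 1 gene its median was 238 CPM in CA-ERBB2 and 308 CPM in Control. Tmsb4x, thymosin beta 4, which binds actin monomers, had a median of 9028 CPM (2828 to 17995) in CA-ERBB2 members with 3 genes and of 588 CPM in those with 1 gene. The members with 3 genes were chosen by their network genes, and these levels are descriptions without a test.

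The markers of the labelled cell type were mixed in the members, with epithelial genes low and genes of pillar and Deiters cells present. Epcam, a marker of epithelial cells, had counts in 21 of 46 CA-ERBB2 and 14 of 46 Control members, and Sox2, a transcription factor of supporting cells, in 8 and 15. The sum of 8 epithelial genes had a median of 27.2 CPM in CA-ERBB2 and 120 CPM in Control members, and reached 1000 CPM in 9 and 7 of them. Sox9, another transcription factor of these cells, had counts in 26 and 29 of 46 members. The 12 genes of pillar and Deiters cells, the supporting cells around the outer hair cells, summed to a median of 1969 CPM in CA-ERBB2 and 2519 CPM in Control members and reached 1000 CPM in 29 and 33 of them, where cells with none had medians of 1858 and 1145 CPM. Of this list Serpine2, a protease inhibitor, had counts in 39 and 38 of 46 members and S100a1, a calcium-binding protein, in 28 and 31. Serpine2 had the highest mean in members, 2099 CPM, and S100a1 was next with 667 CPM. Summed per plate, 1 of the 12 genes was higher in members than in cells with none (median log2 difference -0.96, against -0.22 over all genes). Of the 131 Control cells with none, 30 had a total under 100000 counts. The 12 genes of the greater epithelial ridge and tectorial membrane had medians of 1067 and 1477 CPM. The sum of 12 mesenchyme genes had a median of 5687 CPM (0 to 58024) in CA-ERBB2 and 6566 CPM (0 to 39410) in Control members, and reached 5000 CPM in 24 and 29 of them. In cells with none of the 4 genes the median of that sum was 1045 CPM in CA-ERBB2 and 1168 CPM in Control. None of the genes of these 4 lists was at 0 in all members. The markers thus neither bore out the label in every member nor went against it in every member, and the members are called here by their rule alone.

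The sum of 12 genes of osteoblasts and mineralization had a median of 2330 CPM (0 to 21146) in CA-ERBB2 and 2554 CPM (0 to 24375) in Control members, against 70.3 and 48.5 CPM in cells with none. Sost, a marker of osteocytes, was at 0 in all members. All 6 members with Dmp1 alone had at least 10043 CPM of the mesenchyme genes and at most 103 CPM of the epithelial genes. The 14 genes of macrophages and osteoclasts summed to at least 1000 CPM in 3 CA-ERBB2 and 7 Control members, with ranges of 0 to 7247 and 0 to 22090 CPM and no gene of the list at 0 throughout either genotype. They numbered 2 of 44 and 4 of 40 without wells A12 to D12. The 8 genes of Schwann cells and melanocytes reached 5000 CPM in 0 CA-ERBB2 and 3 Control members, the latter all with Spp1 alone. The part of these other cells in the results was not tested.

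**Figure D4:**
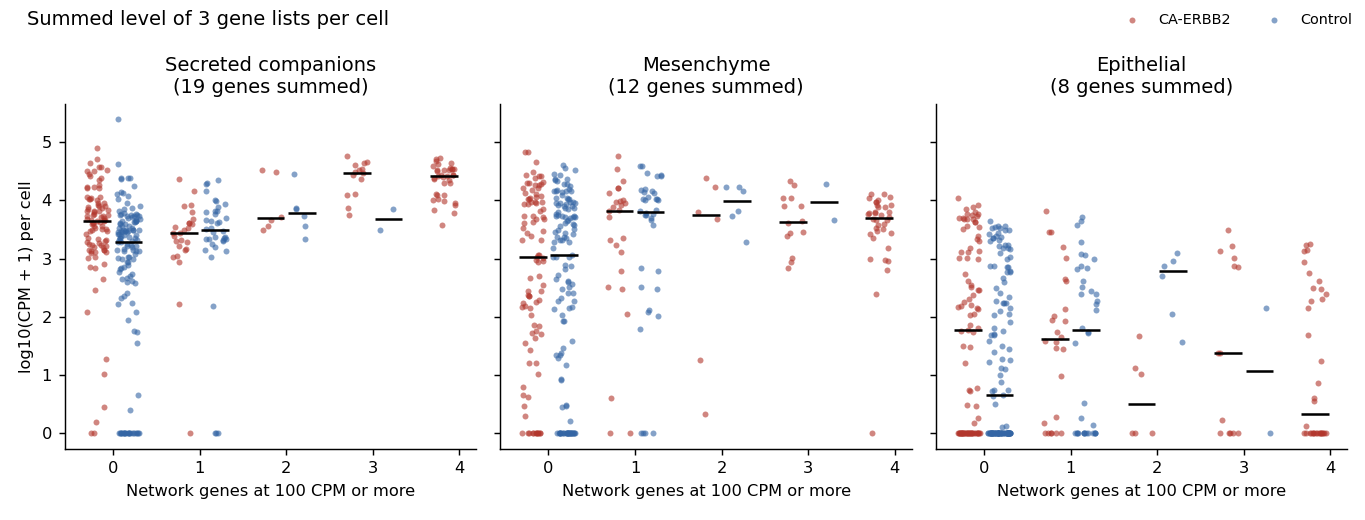
Summed level per cell of 3 lists, as log10(CPM + 1): 19 secreted companions, 12 mesenchyme genes and 8 epithelial genes, in cells with 0 to 4 network genes, by genotype, with medians as black lines. The companions of CA-ERBB2 cells are at a median of 4398 CPM with 0 genes, 2745 CPM with 1 gene and 30014 CPM with 3 genes.

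The members were then compared with the cells of the same plates that had none of the 4 genes, to ask which other genes accompany a partial network. Counts were summed over the cells of each class and plate and fitted with edgeR's quasi-likelihood test with the plate as a term, and a call needed an adjusted p (Benjamini-Hochberg) under 0.05 with a log2 difference past 1. In such sums, more cells with a gene and more RNA of it per cell cannot be told apart. edgeR called 0 of 23070 genes (0.0%), with 770 at an unadjusted p under 0.05, while DESeq2 called 166 higher and 188 lower. Mmp13 came nearest to a call, with TMM-normalised CPM of 22.1, 373 and 1269 in the members of the CA-ERBB2 plates, 138, 208 and 290 in those of the Control plates and 0 in the cells with none on every plate. On CA-ERBB2 plate 1 its counts came from well B12 alone (499 CPM) and on Control plate 2 from well A12 alone (2650 CPM). Without wells A12 to D12 the members of these plates thus had no Mmp13 counts. On Control plate 1 they came from well A3 alone (3575 CPM), and on Control plate 3 from wells C8 (2042 CPM) and A12 (15.6 CPM). No fold is given, since the 226 cells with none had no counts and reads without molecular identifiers are not independent. The adjusted p of edgeR for Mmp13 was 0.140 (0.033 at a level of 200 CPM, where it was called).

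Of the 10 genes tested of the osteoblast list, 7 were higher in members at an unadjusted p under 0.05 and 0 lower, where 1.30% and 2.04% of all genes were. The median log2 difference of the list was 4.37, against -0.22 over all genes tested. All gene lists were chosen with earlier results of these data known, so counts over a list describe it and do not test it. Runx2, the transcription factor of osteoblasts, was higher in members on all 6 plates, at 132 to 391 CPM against 13.4 to 95.9 CPM, with a log2 difference of 2.55 (SE 0.55). Col1a2, a chain of type I collagen, was at 2342 to 4823 CPM in members and 1157 to 2312 CPM in cells with none, with a log2 difference of 0.85 (SE 0.16). Cdh11, a cadherin of mesenchymal and osteoblast cells, was at 375 to 599 CPM in members and 94.6 to 180 CPM in cells with none, and it was higher in members on every plate, as 1.19% of all genes were. Bglap2 was 125 and 64.4 CPM in the members of CA-ERBB2 plates 2 and 3 and at most 12.1 CPM on the other plates. None of these passed the adjusted threshold, the smallest adjusted p among them being 0.534 for Cdh11.

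Among the partners of the network, 8 of 10 were tested and 2 were higher, Mmp14 and Cd63, and 1 lower, Cdh1, at the unadjusted threshold. Mmp14, the membrane metalloproteinase that activates other metalloproteinases, was higher in members on all 6 plates (212 to 443 against 45.1 to 188 CPM). Cd63, a tetraspanin that binds TIMP1, was higher on 5 of 6 plates, at 799 to 5736 against 490 to 2518 CPM. Cdh1, E-cadherin of epithelial cells, was lower on 5 of 6 plates, at 25.5 to 136 against 102 to 352 CPM. Of the 10 AP-1 genes, 4 were higher and 0 lower, among them Fos (log2 difference 0.42, SE 0.16), Jun (0.84, SE 0.37) and Junb (0.71, SE 0.29). The number of AP-1 genes higher ran from 1 to 4 under the other edgeR settings.

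On the lower side, Fabp7, a fatty acid binding protein of glia, was at 7.76 to 139 CPM in members and 160 to 6394 CPM in cells with none, with a log2 difference of -4.86 (SE 0.65) and an adjusted p of 0.212. In the cochlea, the paper lists Fabp7 as a marker of inner phalangeal cells. Ptprz1, a receptor phosphatase of glial cells, was lower in members on all 6 plates, at 55.2 to 177 against 231 to 1138 CPM. Erbb3, a partner of ERBB2 in signaling, was the 1 gene of 12 tested ERBB receptors and ligands past the unadjusted threshold, with a log2 difference of -2.94 (SE 1.10). Sox2 and Sox10, 2 of the 14 genes of supporting cell transcription and Notch, and 3 of the 10 cycling genes, among them Mki67, were lower and none higher. Of the 12 genes of pillar and Deiters cells, 4 were lower and 1 was higher at the unadjusted threshold. Hba-a1, a hemoglobin gene of red blood cells, was also lower on all 6 plates, with 1220 to 2529 CPM in the Control cells with none and at most 125 CPM in the CA-ERBB2 cells with none.

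Members with Timp1 were compared with members without it on the same plates, since Timp1 was the gene that all members with 3 genes shared with Spp1. edgeR called 0 of 18414 genes (0.0%), with 386 at an unadjusted p under 0.05, and DESeq2 called 494. The companions had 4 of 19 genes higher and 0 lower at the unadjusted threshold, where 0.282% and 1.81% of all genes were, and a median log2 difference of 1.52 against -0.64. As a list chosen with earlier results of these data known, they are no independent support here. Lgals1 was higher with Timp1 on 5 of 6 plates, with a log2 difference of 1.52 (SE 0.45). Mmp13 was at 63.9, 817 and 1891 CPM with Timp1 and 0, 4.49 and 0 CPM without it on the CA-ERBB2 plates. On the Control plates it was 0, 835 and 783 CPM with and 161, 0 and 2.82 CPM without, so plate 1 ran the other way. The 63.9 CPM of CA-ERBB2 plate 1 and the 835 CPM of Control plate 2 each came from a single cell in wells A12 to D12. Ptgds, a prostaglandin D synthase of meninges and mesenchyme, was lower with Timp1 on all 6 plates, at 17.6 to 1718 against 943 to 4131 CPM, with a log2 difference of -3.95 (SE 0.83) and an adjusted p of 0.233. Lower on all 6 plates were 0.94% of all genes. Without wells A12 to D12, 10 genes were called, all lower, Ptgds among them, and leaving out 1 plate gave 0 to 5 calls.

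The genotypes were compared within the members, plate against plate, to ask whether a partial network differs when the transgene is present. By the genes of the rule, 14 of 46 CA-ERBB2 and 2 of 46 Control members had 3 genes. The summed companions had medians of 30014 CPM in these CA-ERBB2 members, and of 2745 and 3117 CPM in CA-ERBB2 and Control members with 1 gene. Genotype and this make-up of the members cannot be told apart in the plate sums. Erbb2, on chr11:98412470-98437716, had counts in 17 of 46 members of each genotype. Its TMM-normalised CPM was 26.1, 20.96 and 45.0 on the CA-ERBB2 plates and 16.6, 3.44 and 0.693 on the Control plates. The plates did not overlap, and edgeR gave a log2 fold change of 2.15 (SE 1.45) with an adjusted p of 0.999. Whether reads of the transgene were counted under this gene was not given in the sources used here.

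edgeR called 0 of 16786 genes between the genotypes (0.0%), with 592 at an unadjusted p under 0.05, while DESeq2 called 129 and limma with each cell weighted equally called 0, with 198 unadjusted. Among the companions 6 of 17 tested genes were higher in CA-ERBB2 and 1 was lower, where 1.80% and 1.73% of all genes were, and the list had a median log2 fold change of 1.499 against -0.16 over all genes. This list was chosen with earlier results of these data known, so its shares are a description and not independent support. S100a6, a calcium-binding protein, was at 351, 960 and 707 CPM in CA-ERBB2 and 66.9, 76.1 and 55.5 CPM in Control, a log2 fold change of 3.35 (SE 0.70). Its plates did not overlap, with counts in 17 of 46 CA-ERBB2 and 15 of 46 Control members. In CA-ERBB2, 2 members with Timp1 alone, 1 on plate 1 at 5109 CPM and 1 on plate 2 at 8419 CPM, held 70.7% of its counts. Without these 2 members, a choice made after seeing the data, its level over the members' total counts was 57.6, 151 and 479 CPM on the CA-ERBB2 plates against 91.4, 75.1 and 57.7 CPM in Control, and the plates overlapped. Lgals1 was at 393, 10418 and 14528 CPM in CA-ERBB2 and 335, 1634 and 728 CPM in Control, a log2 fold change of 3.23 (SE 1.11), with CA-ERBB2 plate 1 inside the Control range. With CA-ERBB2 replicate 2 left out the list's median was 0.66, and with each cell weighted equally it was 0.13.

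Anxa2, an annexin that binds the plasminogen activator, was at 300, 1245 and 872 CPM in CA-ERBB2 and 254, 223 and 228 CPM in Control, without overlap. Anxa1 had a log2 fold change of 2.82 (SE 0.91) with overlapping plates. Il12a was at 0.606, 270 and 92.8 CPM in CA-ERBB2 and 0 on the Control plates. It had counts in 8 of 46 CA-ERBB2 members, most of them with 3 network genes, and in 0 of 46 Control members, and 50.4% of its counts came from 1 cell. Rbp7, a retinol binding protein, had 99.6% of its CA-ERBB2 counts in 1 cell. Plaur, the urokinase receptor, was the companion that was lower, at 1.18, 0.127 and 0 CPM in CA-ERBB2 and 47.0, 49.8 and 0.0302 CPM in Control.

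Outside the lists, Plet1, a surface glycoprotein of epithelia, was at 24.6, 268 and 107 CPM in CA-ERBB2 and 0.717, 2.24 and 0.633 CPM in Control. Tcim, a regulator of transcription, was at 113, 415 and 130 CPM against 24.4, 9.27 and 9.41 CPM. Kcne1, a potassium channel subunit, was at 120, 54.3 and 420 CPM against 0.0597, 4.89 and 0.633 CPM. In each of the 3 the plates of the genotypes did not overlap, as in 2.80% of all genes in this direction. The counts came from 8 CA-ERBB2 and 5 Control members for Plet1 and for Kcne1, and from 17 and 11 for Tcim.

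At the unadjusted threshold, the genes lower in CA-ERBB2 members included those of macrophages. Of the 13 tested genes of macrophages and osteoclasts, 8 were lower and 0 higher, where 1.73% and 1.80% of all genes were. The list had a median log2 fold change of -4.56, against -0.16 over all genes, and a lowest adjusted p of 0.999 in edgeR. It was chosen with earlier results of these data known, so these counts describe it and do not test it. C1qb, a complement component, was at 11.7, 19.1 and 0 CPM in CA-ERBB2 and 139, 579 and 6.99 CPM in Control. Lyz2, lysozyme of myeloid cells, was at 4.11, 1.65 and 0.0676 CPM against 120, 510 and 0.241 CPM. These levels moved with the few members that had macrophage genes, since Lyz2 reached 100 CPM in 0 CA-ERBB2 and 6 Control members and C1qb in 2 and 6. Without wells A12 to D12 these were 0 and 3 for Lyz2 and 0 and 3 for C1qb, 6 of 9 tested genes of the list were lower and 0 higher, and both genes were at 0 on Control plate 3.

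Ccl3, a chemokine, was at 0, 0.191 and 0 CPM in CA-ERBB2 and 106, 1292 and 1.39 CPM in Control, with 81.1% of the Control counts in 1 cell. Over the total counts of the Control members it was at 162, 1575 and 0 CPM without wells A12 to D12, from 2 cells. Lgmn, the lysosomal protease legumain, was at 37.9, 14.8 and 25.1 CPM in CA-ERBB2 and 172, 548 and 384 CPM in Control, a log2 fold change of -3.83 (SE 0.81), with counts in 16 and 26 members, and of -4.49 without wells A12 to D12. In Control, 2 members held 42.0% of its counts. Without them, a choice made after seeing the data, its level over total counts was 39.3, 361 and 398 CPM in Control. All CA-ERBB2 members had 50.7, 11.2 and 17.0 CPM on that scale, so the plates overlapped. With the 2 CA-ERBB2 members with most counts left out as well, CA-ERBB2 was at 27.3, 11.2 and 17.0 CPM, without overlap. Hpgds and P2ry13, a prostaglandin synthase and a nucleotide receptor of blood and myeloid cells, were lower with log2 fold changes of -6.18 (SE 1.49) and -6.84 (SE 1.78). Hpgds had counts in 6 CA-ERBB2 and 7 Control members, with 45.6% of the Control counts in 1 cell. P2ry13 had counts in 3 and 7 members, with 90.6% of the CA-ERBB2 and 80.6% of the Control counts in 1 cell each. With all members in the sums, the plates of Ccl3, Lgmn, Hpgds and P2ry13 did not overlap, as in 5.96% of all genes in this direction. The osteoblast genes, the mesenchyme genes, the epithelial genes, the ERK feedback and ETV genes, the AP-1 genes, the ERBB receptors and ligands and the osteopontin receptors had 0 genes past the unadjusted threshold in either direction. Of all genes, 1.80% were higher and 1.73% lower at that threshold. With shares this low, 0 in lists of this size does not show that the genotypes were alike in them. The network partners had Cd63 alone, with a log2 fold change of 1.92 (SE 0.74).

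**Figure D5:**
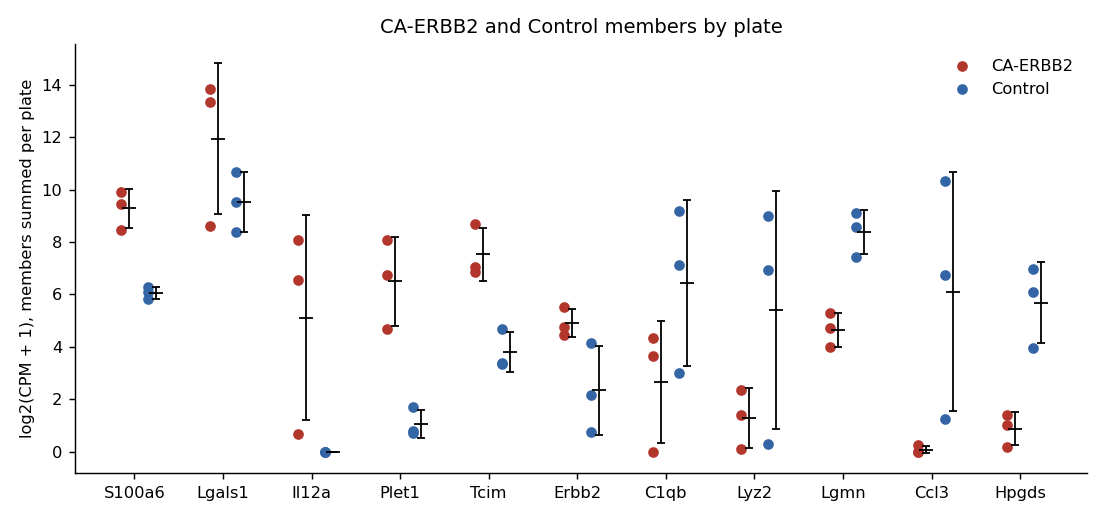
TMM-normalised level of 11 genes in the members summed per plate, as log2(CPM + 1), with 3 CA-ERBB2 and 3 Control plates as points and the mean of each genotype as a line. S100a6 lies at 351 to 960 CPM in CA-ERBB2 and 55.5 to 76.1 CPM in Control, with 70.7% of the CA-ERBB2 counts in 2 members, while Lgals1 overlaps.

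The depth of the members was compared by plate. The median total of the members was 3503730, 2500838 and 1804070 on the CA-ERBB2 plates and 3112127, 3286570 and 3087734 on the Control plates (two-sided exact permutation test, p = 0.4, adjusted p = 0.8 over 4 measures). CA-ERBB2 plates 2 and 3 thus lay below every Control plate, and without CA-ERBB2 replicate 1 the difference in the mean of the plate medians was -1009690 counts and -2282 genes detected. The median number of genes detected was 9405, 3148 and 1804 in CA-ERBB2 and 7407, 3520 and 3348 in Control (exact permutation p = 1.0). Members with at least 20% mitochondrial counts were 6.25, 11.1 and 16.7% of the CA-ERBB2 members of a plate and 0, 0 and 8.33% of the Control members (exact permutation p = 0.2, adjusted 0.8). The smallest p that 3 plates against 3 allow is 0.1, so none of these could pass the threshold and equal depth is not shown.

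Within CA-ERBB2, full-network cells were compared with members on the same 3 plates, to ask what else separates a partial from a full network. edgeR called 0 of 18785 genes (0.0%), with 453 at an unadjusted p under 0.05, and DESeq2 called 334. Of the 19 companions, 8 were higher in full-network cells and 0 lower at the unadjusted threshold, where 1.59% and 0.825% of all genes were, with a median log2 difference of 1.31 against 0.40. Since the list was chosen with earlier results of these data known, this is a description only. Erbb2 was at 138, 86.6 and 193 CPM in full-network cells and 21.4, 16.4 and 38.9 CPM in members, a log2 difference of 2.47 (SE 0.77). It had counts in 22 of 36 and 17 of 46 cells. Il12a was at 59.7, 648 and 518 CPM against 0.497, 211 and 80.1 CPM, a log2 difference of 3.46 (SE 1.10).

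Egr3, an immediate early transcription factor, was at 208, 486 and 409 CPM in full-network cells and 9.58, 40.0 and 16.7 CPM in members. Tnc, the matrix glycoprotein tenascin C, was at 430, 798 and 690 CPM against 91.7, 131 and 121 CPM. Col6a1, a chain of type VI collagen, and Fgf1, a fibroblast growth factor, were higher as well on all 3 plates, with log2 differences of 2.83 (SE 0.55) and 6.27 (SE 1.56). The mesenchyme list ran the other way, with 4 of 12 genes lower and 1 higher: Dcn, the proteoglycan decorin, was at 203, 186 and 195 CPM against 1662, 1092 and 611 CPM. Mmp2, gelatinase A, was at 127, 25.1 and 134 CPM in full-network cells and 711, 289 and 470 CPM in members. Fos was lower on all 3 plates, with a log2 difference of -1.25 (SE 0.34). A gene that moves the same way on all 3 plates is common here, as 15.9% of all genes were higher and 8.79% lower on every plate, and the adjusted p of each gene named was 1.0.

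Whether the difference between members and cells with none was itself different between the genotypes was tested as an interaction in the same fit. edgeR called 0 of 23070 genes (0.0%), with 298 at an unadjusted p under 0.05, and DESeq2 called 199. Lgals1 was higher in members than in cells with none on all 3 CA-ERBB2 plates (402, 10061 and 14088 against 163, 2132 and 1306 CPM) and on all 3 Control plates (355, 1651 and 746 against 302, 1156 and 371 CPM). The log2 difference of these differences was 1.74 (SE 0.52), with an adjusted p of 1.0. It was the 1 companion of 19 past the unadjusted threshold, where 0.594% of all genes were in this direction. Among the network partners, Timp3 moved in opposite ways in the genotypes on every plate, with Control higher, as 0.902% of all genes did.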

How the data were processed

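Single GFP+ cells of CA-ERBB2 and Control mice were analysed from 177 wells per genotype, on 3 plates each, taken as the number in the sample title. The authors mapped the reads with STAR 2.7.6a to GRCm38 and Gencode M25, assigned them by strand to the exons of genes with featureCounts of Subread 2.0.1, and deposited whole-number counts of 55367 genes without normalization. The libraries (SMART-Seq Single PLUS) hold no molecular identifiers, so intervals cover counting error only. No doublet caller was run, and each well is a library of its own with no shared barcodes.

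CPM was 1000000 times a count over the cell's total, and a network gene was present at 100 CPM. No cell was left out. Members and gene lists were chosen with earlier results of these data known. Counts summed per plate and class were tested in R 4.3.3 with edgeR 4.0.16 (TMM, filterByExpr, quasi-likelihood, Benjamini-Hochberg adjusted p under 0.05 and log2 fold change past 1). Comparisons of classes on the same plate had the plate as a term, and plates with at least 3 cells in each class entered the comparison by Timp1. The 4 network genes were left out of all counts of genes. With pups of a genotype pooled, p-values measure the spread between plates. Values per plate were compared in two-sided permutation tests, which were exact. Shares have exact Clopper-Pearson intervals at 95%, and a share of 0 allows 3 counts.

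Genes were named by a rule: the 4 network genes, the genes of the network partners, ERBB and companion lists, up to 4 genes per list with the highest mean CPM in members, and up to 10 genes per direction and comparison with the smallest p whose plates did not overlap or moved the same way, without predicted genes. Other genes of a list were named for passing the unadjusted threshold, or for their role as markers, after their values were seen. Motifs were searched in 250 bases before the RefSeq start, and coordinates come from Gencode M21 on the same build. Alternatives were levels of 50, 200 and 1000 CPM, cells thinned to 100000 counts, at least 10 counts of the gene, a filter on cells (at least 100000 counts, under 20% mitochondrial), omission of wells A12 to D12, no filter on low counts, RLE size factors, DESeq2 1.42.0, limma 3.58.1, the plate number as a block and omission of each plate. The scripts were tested on counts simulated from these sums. edgeR called 4, 7, 1, 5 and 0% of the genes changed 8-fold and 33, 43, 24, 34 and 9% of those changed 64-fold. The order is genotypes within members, members against cells with none, interaction, full-network cells and Timp1. In the simulated interaction 13 of 38 calls were false. A count of 0 calls therefore does not show that no genes differed.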

Additional observations from a re-analysis of the deposited data

Results flagged for a closer look

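For 4 genes the difference between members and cells with none of the network genes ran one way on all 3 CA-ERBB2 plates and the other way on all 3 Control plates. Such opposite movement was found in 177 of 23070 genes tested (0.767%) with CA-ERBB2 higher and in 208 (0.902%) with Control higher. The log2 difference of the differences, CA-ERBB2 minus Control, was 3.98 for Mme, a membrane metallopeptidase, with members above cells with none in CA-ERBB2 (255, 109 and 224 against 44.3, 13.8 and 34.2 CPM) and below them in Control (44.4, 69.4 and 16.9 against 118, 154 and 37.9 CPM). It was -2.05 for Igfbp5, a binding protein of insulin-like growth factors, with 474, 1133 and 564 against 1529, 1610 and 1370 CPM in CA-ERBB2 and 1491, 1033 and 1993 against 760, 566 and 1132 CPM in Control. It was -1.71 for Timp3, an inhibitor of metalloproteinases bound to the matrix, with 145, 164 and 406 against 196, 413 and 574 CPM in CA-ERBB2 and 387, 499 and 256 against 329, 157 and 130 CPM in Control. It was 2.93 for Ccne1, cyclin E1. The adjusted p of the interaction in edgeR was 1.0 for each of the 4 genes.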

How the results depend on the processing

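The counts of genes called depended on the tool and the filter. DESeq2 called 34 genes higher and 95 lower in CA-ERBB2 within members, 166 higher and 188 lower in members than in cells with none, 98 higher and 101 lower in the interaction, 276 higher and 58 lower in full-network cells than in members, and 54 higher and 440 lower with Timp1. Without the filter on low counts the numbers were 98 and 82, 1 and 1, 0 and 0, 25 and 12, and 2 and 1. A level of 200 CPM gave 1 gene higher in members than in cells with none (Mmp13) and 2 higher and 4 lower with Timp1, the cell filter gave 1 higher in full-network cells, and omission of wells A12 to D12 gave 10 lower with Timp1. Leaving out 1 plate gave 0 to 1 higher and 0 lower against cells with none (1 without CA-ERBB2 replicate 3), 0 to 5 higher and 0 to 2 lower in full-network cells (5 and 2 without CA-ERBB2 replicate 1, 1 higher without replicate 2), and 0 to 4 higher and 0 to 2 lower with Timp1 (1 higher without CA-ERBB2 replicate 1, 2 lower without replicate 2, 4 higher and 1 lower without Control replicate 1, 3 higher and 2 lower without replicate 2). It gave 0 between genotypes and in the interaction. The cause was not tested.

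With the plate number as a replicate block, 0 genes were called between genotypes. The correlations of the deviations of plates with the same number were 0.153, -0.000890 and 0.0513 over 9996 genes. Those of plates with different numbers ran from -0.118 to 0.0429. The paper used littermates as Controls and collected the cells in independent sorts, but the labels do not say that a number pairs the genotypes. The numbers were therefore not taken to pair the plates, and these correlations do not settle whether they do. The block was fitted for the comparison within members only, since the other fits hold the plate.

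The share of members with Spp1 in CA-ERBB2 was 95.1% at 1000 CPM (78.3% at 100 CPM), Control had 16 members at 1000 CPM, and the share of members with 1 gene in which it was Spp1 was 15.6% at levels of 1 percent of each full-network median, an alternative added after seeing the data (67.2% at 100 CPM). The difference in median genes detected, 27.5 at first, was -765.7 under the cell filter and ran from -2282 to 1518 with 1 plate left out, with -591.6 and -677.8 without Control replicates 2 and 3. The difference in the share of members with an Erbb2 count, 4.09 percentage points, ran from -8.11 (without Control replicate 3) to 19.3. Of the values of named genes under the alternatives, 857 of 861 kept their sign. Part of these genes were named because their plates did not overlap or moved the same way, and the alternatives reuse the same cells. The number that kept their sign is therefore no independent support. Rbp7 within members was -1.65 with the replicate block, -0.04096 with each cell weighted equally and from -2.49 (without CA-ERBB2 replicate 2) to 7.13 with 1 plate left out, and Cd63 was -0.0643 with each cell weighted equally. Depth limits detection in the 5 members under 100000 counts.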
